A study of Homo sapiens with 6 samples.

Results

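The 10 genes *APOB*, *MTTP*, *APOA1*, *APOA2*, *APOM*, *APOE*, *APOC1*, *APOC3*, *LIPC* and *APOH*, which encode apolipoproteins and proteins that load or remodel lipoprotein particles, were followed across 6 sequencing libraries. They were taken by gene symbol from the deposited table of RPKM values (read numbers scaled to transcript length and to the mapped reads of the library), where they make up 10 of 21863 symbols, and all 10 had a value above 0 in every library. The libraries came from Hep G2, a cell line of human liver tumor origin. Cells were transfected with 5 nM of a double-stranded RNA mimicking *miR-195*, with 5 nM of one mimicking *miR-497* (both collected at 24 h), or were not transfected (NT, labelled 0 h). From each condition 1 total RNA library and 1 Ago2-IP library were made, the latter from RNA that precipitated with an antibody to human Argonaute 2, the protein that holds a miRNA on its target. The design thus has 1 library per group, no replicate and no cells transfected with a control RNA, so an effect of the mimic, of transfection itself and of the different labelled time cannot be told apart. The values come from a single cell line, and no p-value is given.

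Lipoproteins carry triglyceride and cholesterol in blood. In hepatocytes the very large protein *APOB* is lipidated while it is being made, with the help of the microsomal triglyceride transfer protein *MTTP*, and leaves the cell in very low density lipoprotein. *APOA1* and *APOA2* are the main proteins of high density lipoprotein, small exchangeable apolipoproteins such as *APOE*, *APOC1* and *APOC3* move between particles and govern their clearance, and hepatic lipase (*LIPC*) trims the particles in the liver. A miRNA guides Argonaute to messenger RNA mostly by pairing of its bases 2 to 8, the seed, with the 3′UTR.

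The mature strands of the 2 mimicked miRNAs are shown because they share their seed, which is in capitals. The sequences are from RefSeq, and the 2 genes lie on the minus strand of chromosome 17 (GRCh38.p14, chr17:7017667-7017687 and chr17:7017979-7017999). The strands have the same base at 12 of 21 positions.
hsa-miR-195-5p: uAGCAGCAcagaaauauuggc
hsa-miR-497-5p: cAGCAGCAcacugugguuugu

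The sequence that pairs with this seed, TGCTGCT, was in no annotated 3′UTR of any of the 10 genes, while 25.3% of 18212 genes with a 3′UTR held it. The search used the transcript strand only and GENCODE release 44 on GRCh37, the build also called hg19. Most of the 10 genes have little 3′UTR to search: that of the canonical transcript was 57 bases long in *APOA1*, 100 in *APOH*, 113 in *APOA2*, 116 in *APOC1*, 121 in *APOM*, 143 in *APOE*, 188 in *APOC3* and 301 in *APOB*, and reached 1017 bases in *LIPC* and 1149 in *MTTP*, against a median of 1117 bases over 18099 genes. Of the 2208 genes with a 3′UTR under 200 bases, 5.34% held TGCTGCT. The core of 6 bases, GCTGCT, which 45.9% of genes held, was present in 2 of the 10. The base after the core was A in *APOC3* and C in *LIPC*, and the share of genes with GCTGCTA was not counted. The copy in *APOC3* is shown with its surroundings because this gene had the largest Ago2-IP change of the 10; it lies near the end of the 3′UTR at chr11:116703779-116703784 on the plus strand (GRCh37), starts at base 179 of 188 and is in capitals. The copy in *LIPC* lies in the 3′UTR of a transcript that is not the canonical one, at chr15:58857537-58857542 on the plus strand.
APOC3 3′UTR: gctggacaagaaGCTGCTatga
LIPC 3′UTR: tcagtttaggtgGCTGCTcaccctga

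Outside the 3′UTR, TGCTGCT occurred 6 times in *APOB* and in the canonical transcript of no other of the 10. All 6 copies were in the coding sequence, on the minus strand. In exon 1, 4 overlapping copies form a repeat of leucine codons (the first at chr2:21266762-21266768), and in exon 26 there were 2 single copies, at chr2:21232066-21232072 and chr2:21228229-21228235. The first copy of exon 1 and both of exon 26 are shown for comparison with the *APOC3* core, with TGCTGCT in capitals. A match is a description of the letters and says nothing of whether Argonaute bound there.
APOB exon 1: ctgcctgcgcTGCTGCTgctgctgctg
APOB exon 26, first copy: ggtggactctTGCTGCTaagaacctta
APOB exon 26, second copy: cagatggcatTGCTGCTttggatctaa

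The total RNA libraries held between about 24800000 and 31000000 mapped reads, as inferred from the values, and the Ago2-IP libraries between about 10700000 and 16900000. All 10 hepatocyte markers examined were at 1 RPKM or more in NT total RNA, led by *AFP* at 4884 RPKM, with *ALB* at 61.4 RPKM. The lowest, *TTR*, was at only 1.52 RPKM there and at 0 in the *miR-497* Ago2-IP library. Of 18 markers of other cell types 9 were at 0 there and 2, *CD68* and *PDGFRB*, reached 1 RPKM, and their summed level was between 13.3 and 16.6 RPKM over the total RNA libraries and between 1.28 and 2.83 RPKM over the Ago2-IP libraries. The median gene had a total RNA ratio to NT of 1.01 (*miR-195*) and 1.06 (*miR-497*), but an Ago2-IP ratio of 1.39 (*miR-195*) and 0.855 (*miR-497*). Changes are therefore given as log2 ratios of RPKM relative to the median of all genes compared. A gene more than 1.5-fold from that median (0.585 on the log2 scale) is counted as higher or lower. Intervals in brackets after a change are 95% counting intervals from the inferred reads and hold no variation between cultures. In whole cultures, fewer cells that express a gene and less of its RNA per cell cannot be told apart.

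The 10 genes spanned more than 3 orders of magnitude in NT total RNA. *APOA2* ranked 2 of all genes by RPKM and *APOB* 7, followed within the group by *APOA1* at rank 37, *APOH* at 49 and *APOE* at 99, then *APOC1* at 565 and *APOM* at 800. *MTTP* at rank 6137, *APOC3* at 6349 and *LIPC* at 11057 were far less abundant. Together the 10 accounted for 1.87%, 2.10% and 2.04% of the summed RPKM in total RNA of NT, *miR-195* and *miR-497* cells, and for 0.80%, 0.86% and 0.82% in the Ago2-IP libraries. In the text below each gene's total RNA value is given in the order NT, *miR-195*, *miR-497*, followed by the Ago2-IP values in the same order.

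**Figure D1:**
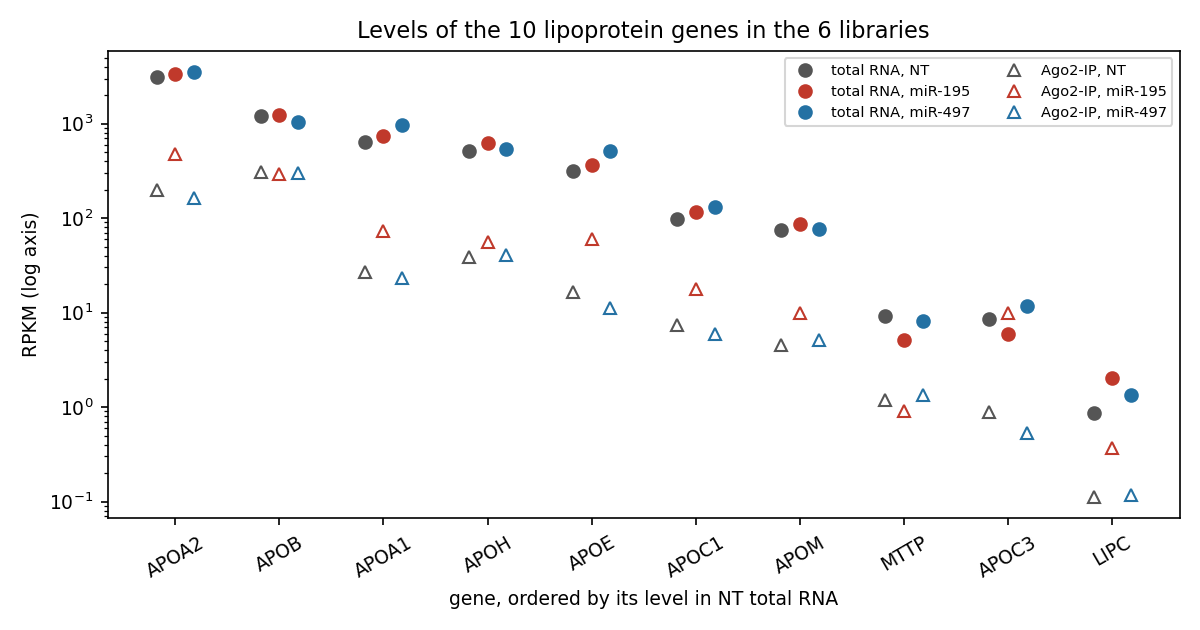
RPKM (log axis) of each of the 10 genes in the 6 libraries, with filled circles for total RNA and open triangles for Ago2-IP, and 1 library per point. In 9 of the genes every Ago2-IP value lies under every total RNA value, while the Ago2-IP value of *APOC3* with *miR-195*, 9.92 RPKM, lies above its total RNA values of 8.65 RPKM in NT and 5.88 RPKM with *miR-195*.

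*APOB*, the structural protein of very low density lipoprotein, stood at 1199, 1241 and 1042 RPKM in total RNA and at 309, 294 and 299 RPKM in Ago2-IP. These deposited Ago2-IP values lay close together. *MTTP*, which loads lipid onto *APOB*, stood at 9.22, 5.18 and 8.13 RPKM in total RNA and at 1.19, 0.898 and 1.33 RPKM in Ago2-IP. Its lowest value in both fractions was with *miR-195*. The *MTTP* values rested on 933, 622 and 1030 reads in total RNA and on 82, 50 and 58 reads in Ago2-IP.

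*APOA1*, the main protein of high density lipoprotein, stood at 635, 738 and 958 RPKM in total RNA and at 27.0, 72.5 and 23.3 RPKM in Ago2-IP. *APOA2*, its partner in the same particles, stood at 3133, 3347 and 3516 RPKM and at 198, 479 and 163 RPKM. *APOM*, a small carrier of sphingosine 1-phosphate on high density lipoprotein, stood at 75.5, 86.0 and 77.5 RPKM and at 4.53, 9.84 and 5.18 RPKM. In total RNA NT was the lowest value in each of the 3 genes, and in Ago2-IP the *miR-195* library was the highest.

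*APOE*, a ligand of lipoprotein receptors, stood at 314, 360 and 512 RPKM in total RNA and at 16.6, 59.7 and 11.1 RPKM in Ago2-IP. *APOC1*, a small apolipoprotein that holds back the uptake of remnants, stood at 97.6, 116 and 132 RPKM and at 7.48, 17.8 and 5.90 RPKM. Both were highest with *miR-497* in total RNA and highest with *miR-195*, lowest with *miR-497* in Ago2-IP. *APOC3*, an inhibitor of lipoprotein lipase and of remnant uptake, stood at 8.65, 5.88 and 11.9 RPKM and at 0.892, 9.92 and 0.528 RPKM. The Ago2-IP values of *APOC3* were inferred from 8, 72 and 3 reads, and its total RNA values from 114, 92 and 196 reads.

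*LIPC*, hepatic lipase, stood at 0.857, 2.04 and 1.35 RPKM in total RNA and at 0.111, 0.366 and 0.117 RPKM in Ago2-IP. These are 34, 96 and 67 reads in total RNA and only 3, 8 and 2 in Ago2-IP, so its Ago2-IP values are near the limit of detection. *APOH*, beta-2-glycoprotein I, a phospholipid-binding plasma protein, stood at 516, 619 and 544 RPKM in total RNA and at 38.4, 56.4 and 40.2 RPKM in Ago2-IP. In *APOH* the *miR-195* library was the highest in both fractions, by a small margin.

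The annotation places other genes over parts of several of these. *APOA1* overlaps its antisense gene *APOA1-AS*, *APOM* overlaps the end of *BAG6*, *APOA2* overlaps *AL590714.1*, *MTTP* overlaps an antisense long non-coding RNA, and *LIPC* overlaps *ALDH1A2* and *LIPC-AS1*, all on opposite strands. On the same strand, a further annotated gene overlaps *APOC1* and *APOE*, and long non-coding RNA genes overlap *LIPC*. Counting by strand would not separate the reads of these. The sources used here do not state counting by strand, so reads of such partners cannot be told apart. Reads shared between *APOC1* and its pseudogene copy nearby were not assessed.

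Total RNA answers whether the level of a transcript moved with a mimic. With *miR-195*, *LIPC* was higher and *MTTP* lower, and the other 8 genes stayed within 1.5-fold of the median. *LIPC*, the lipase, lay 2.35-fold above the median change (log2 1.23, 0.67 to 1.80). *MTTP* was at 0.556 of it (log2 -0.85, -0.99 to -0.70), which is 1.80-fold lower. So 1 of the 10 genes was counted as higher, where 12.9% of 14740 genes were, and 1 as lower, where 8.93% of all genes were. Both shares are near those over all genes. Of the 544 genes outside the 10 with at least 100 RPKM in NT total RNA, 1.1% were higher and 4.78% lower. *LIPC* and *MTTP* were far under that level. The other members counted as neither ran from *APOC3*, at log2 -0.57 (-0.97 to -0.18) and just inside the limit, to *APOH* at 0.25 (0.22 to 0.28). *APOA1* (0.20), *APOE* (0.18), *APOC1* (0.24) and *APOM* (0.17) lay close together slightly above the median, with *APOA2* at 0.08 and *APOB* at 0.03.

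With *miR-497* in total RNA, *APOE* was past the limit, at 1.53-fold above the median (log2 0.62, 0.58 to 0.65). That is 1 of 10 genes counted as higher beside 14.2% of 14768 genes, and 0 counted as lower beside 7.36%. *APOE* was at 314 RPKM in NT. Of the 544 genes outside the 10 with at least 100 RPKM in NT total RNA, 1.47% were higher and 3.68% lower. *LIPC* at log2 0.56 (-0.03 to 1.16) and *APOA1* at 0.50 (0.47 to 0.53) were just inside the limit. Both were past it, so that 3 genes were higher, without centring, when scaled on the genes of at least 100 RPKM and when centred on the genes of at least 1 RPKM in all 6 libraries, while 0 were past a limit of 2-fold. They were followed by *APOC3* at 0.37 (0.03 to 0.70) and *APOC1* at 0.34 (0.24 to 0.45). *APOB* at -0.29, *MTTP* at -0.27 (-0.40 to -0.14), *APOM* at -0.05, *APOH* at -0.01 and *APOA2* at 0.08 made up the rest. The median of the 10 was 0.21, after 0.18 with *miR-195*, against 0 over all genes by construction. Over the 544 genes outside the 10 with at least 100 RPKM in NT total RNA the median was -0.10 (*miR-497*) or -0.09 (*miR-195*). Both comparisons use the same NT library, so an NT value that is off moves both.

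The 2 mimics share their seed, and their total RNA libraries can also be set side by side. *APOC3* had 0.495 times as much RPKM with *miR-195* as with *miR-497*, *MTTP* 0.637, *APOE* 0.703 and *APOA1* 0.770 times as much. *LIPC* had 1.51 times as much with *miR-195*, *APOB* 1.19 times, *APOH* 1.14 times and *APOM* 1.11 times, while the median gene stood at 0.951. *APOC1* at 0.883 and *APOA2* at 0.952 were close to that median.

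**Figure D2:**
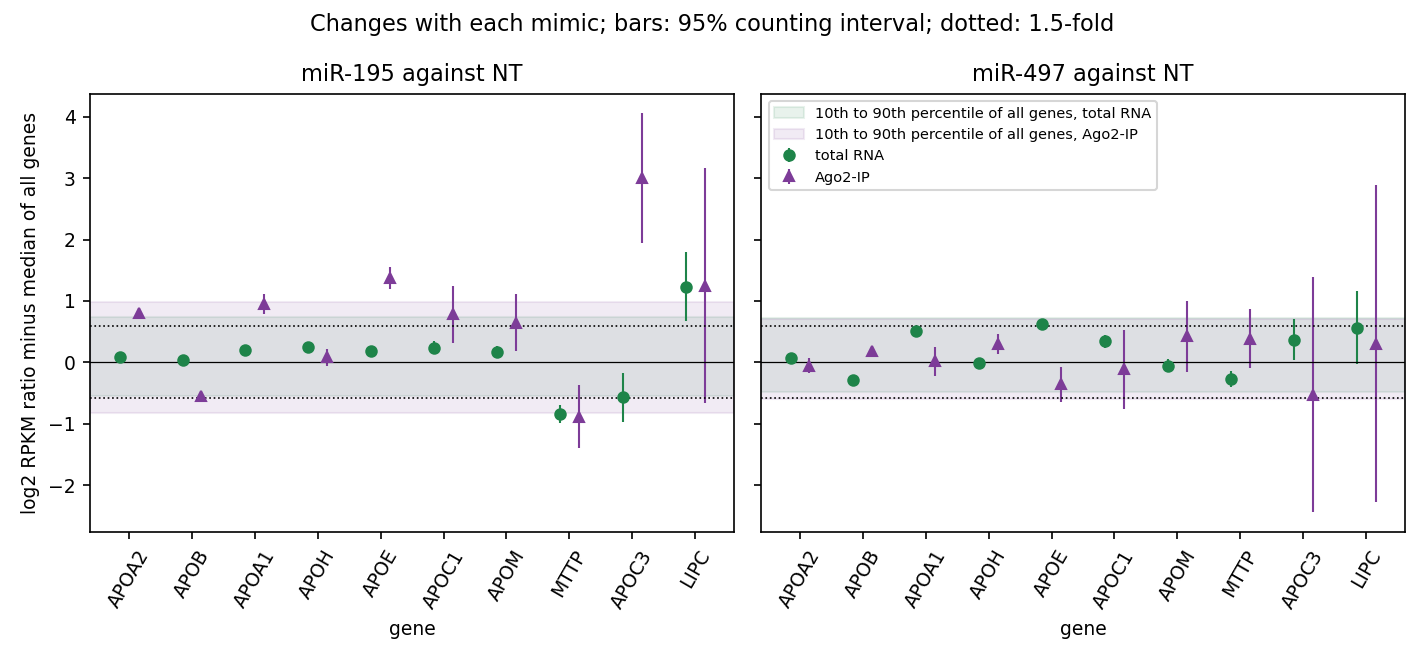
Log2 RPKM ratio to NT relative to the median of all genes, for total RNA (circles) and Ago2-IP (triangles), with 95% counting intervals as bars, shaded bands for the 10th to 90th percentile of all genes and dotted lines at 1.5-fold. With *miR-195* the Ago2-IP values of 7 genes lie above the upper dotted line and that of *MTTP* under the lower one, while with *miR-497* none of the Ago2-IP values passes either line; those of *LIPC* rest on 3, 8 and 2 reads.

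In the Ago2-IP libraries the question is which transcripts made up a greater or smaller share of the RNA that came down with Argonaute. With *miR-195*, 7 of the 10 genes were counted as higher, where 21.4% of 14291 genes were, and 1 as lower, where 17.4% were. The share was also above that among the 544 abundant genes outside the 10, of which 27.0% were higher and 7.35% lower. These have at least 100 RPKM in NT total RNA, while *APOC1*, *APOM*, *MTTP*, *APOC3* and *LIPC* were under it, so the sets differ in abundance. The 7 were *APOC3*, *APOE*, *LIPC*, *APOA1*, *APOA2*, *APOC1* and *APOM*, and the 1 was *MTTP*. In 4 of the 7, *APOC3*, *APOE*, *APOA1* and *APOA2*, the whole counting interval lay beyond the limit. The median of the 10 was log2 0.79, against 0.24 for the abundant genes outside the 10. Scaled on those abundant genes instead, 4 of the 10 were higher, *APOC3*, *APOE*, *LIPC* and *APOA1*, and 2 were lower, *MTTP* and *APOB*. Past a limit of 2-fold 3 were higher and 0 lower, and *LIPC*, on 3 and 8 reads, was among the 3. Without centring 7 were higher and 0 lower, but the median gene itself then stood at 1.39-fold. The shares over all genes under these alternatives were not counted.

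The Ago2-IP change of *APOC3* with *miR-195* stood out in size. From 8 to 72 reads it was 8-fold above the median change (log2 3.0, 1.95 to 4.05), higher than 99.5% of all genes. *APOE* was 2.59-fold above the median (log2 1.37, 1.19 to 1.55). Next came *APOA1* at 0.95 (0.78 to 1.12), *APOA2* at 0.80 (0.71 to 0.89), *APOC1* at 0.78 (0.32 to 1.24) and *APOM* at 0.64 (0.18 to 1.11). For *LIPC* the value was 1.25, but with 3 reads in NT its interval ran from -0.67 to 3.16. *APOH*, at 0.08 (-0.06 to 0.22), moved with the median. *APOB*, at -0.55 (-0.56 to -0.53), was 1.46-fold lower than the median and just inside the limit. *MTTP* was at -0.88 (-1.39 to -0.38), or 1.84-fold lower, about as far from the median as in total RNA.

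With *miR-497* none of the 10 genes was counted as changed in Ago2-IP, beside 12.3% of 13866 genes that were higher and 10.3% that were lower. *APOM* at log2 0.42 (-0.15 to 0.99), *MTTP* at 0.39 (-0.10 to 0.87), *APOH* at 0.29 (0.13 to 0.45) and *APOB* at 0.18 (0.16 to 0.19) lay above the median. *APOA1* at 0.02, *APOA2* at -0.06 and *APOC1* at -0.11 lay on it within their intervals, while *APOE* at -0.36 (-0.65 to -0.08) lay under it. *APOC3*, with 8 reads in NT and 3 with *miR-497*, was at -0.53 (-2.44 to 1.39), and no fold is given for *LIPC*, with 3 and 2 reads. The median of the 10 was 0.10. Without centring it was -0.13, and 2 of the 10, *APOE* and *APOC3*, were then counted as lower.

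The 2 mimics thus stood apart in the Ago2-IP fraction for several of the genes. *APOC3* had 18.8 times as much RPKM there with *miR-195* as with *miR-497*. That ratio rests on 72 against 3 reads, with a counting standard error of 0.85 on the log2 scale. *APOE* had 5.40 times, *APOA1* 3.11, *APOC1* 3.02 and *APOA2* 2.95 times as much, where the median gene had 1.59 times as much. No ratio is given for *LIPC*, with 8 and 2 reads. *APOM* at 1.90 and *APOH* at 1.40 were near that median. *APOB* at 0.985 and *MTTP* at 0.675 were under it. Each library is a single sample, and how far a single library differs from a repeat was not tested.

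Ago2-IP RPKM divided by the RPKM in total RNA is what the study calls the abundant-Ago2 fraction. It relates 2 values scaled within their own library, not amounts of RNA. The 2 fractions started from different amounts of RNA, and their summed RPKM in NT was 75019 in Ago2-IP and 319833 in total RNA. The study describes no precipitation with a control antibody. Whether a low ratio means little binding to Argonaute was not tested. In NT all 10 genes lay under the median of all genes, 0.326, and their own median was 0.0756. The lowest was *APOA1* at 0.0424 (0.0385 to 0.0468), at percentile 0.298 of the 14101 genes compared. *APOE* followed at 0.0530, *APOM* at 0.0600, *APOA2* at 0.0633, *APOH* at 0.0745 and *APOC1* at 0.0766. *APOC3* at 0.103 (0.0504 to 0.211), *MTTP* at 0.129 (0.103 to 0.162) and *LIPC* at 0.130 (0.0398 to 0.422) overlapped in their intervals. *APOB* was highest at 0.258 (0.256 to 0.260). Low ratios were common among abundant transcripts. The 544 genes outside the 10 with at least 100 RPKM had a median of 0.107, with 521 of them under the median of all genes. The median of 30 plasma protein genes was 0.105.

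With *miR-195* the ratio of *APOC3* was 1.69 (1.24 to 2.30), higher than 89.9% of genes, while the other 9 lay under the median of all genes, 0.469. Among those 9 it ran from 0.0912 in *APOH* and 0.0981 in *APOA1* to 0.237 in *APOB*. With *miR-497* the ratio of *APOB*, 0.286, was above the median of all genes, 0.260, and the other 9 lay under it, with *APOE* at 0.0216 and *APOA1* at 0.0243 the lowest. The 10 had a median of 0.159 with *miR-195*, where the abundant genes outside the 10 had 0.188. With *miR-497* these medians were 0.0556 and 0.0894.

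**Figure D3:**
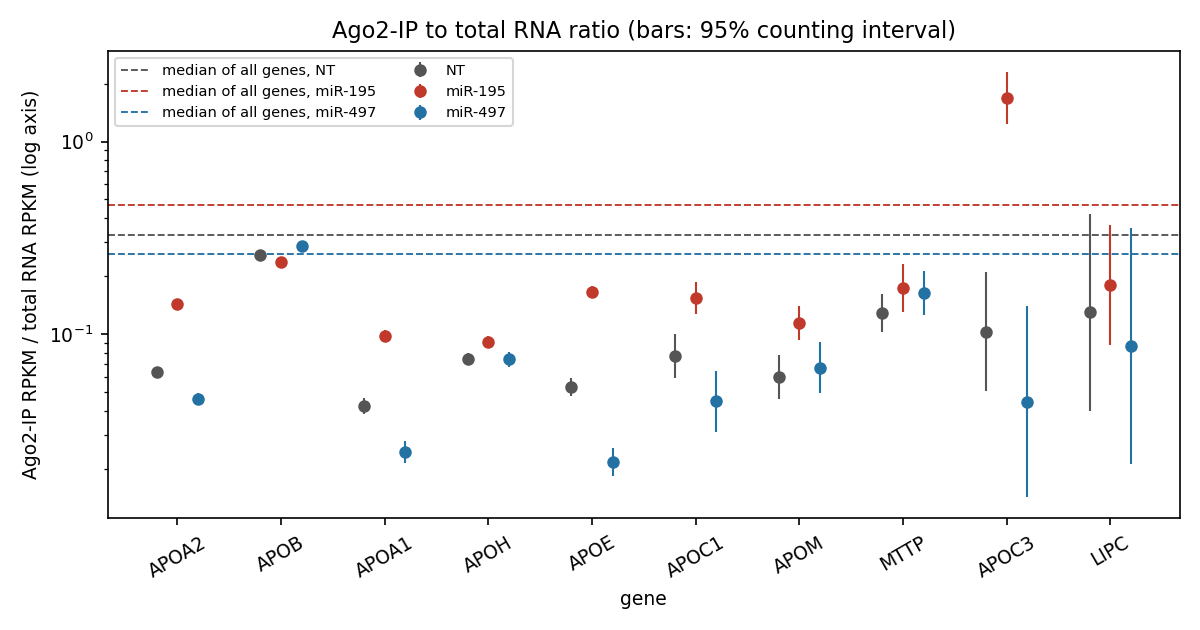
Ago2-IP RPKM divided by total RNA RPKM (log axis) for the 10 genes in NT, *miR-195* and *miR-497* cells, with 95% counting intervals as bars and the median of all genes in each condition as dashed lines. *APOC3* with *miR-195*, at 1.69, and *APOB* with *miR-497*, at 0.286, are the points above the line of their own condition.

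The fold enrichment score divides this ratio with a mimic by the same ratio in NT, and the study ranked genes by it. A high score alone did not make a candidate target there. The study also asked for the target sequence in the 3′UTR and for a decrease of more than 2-fold on expression arrays. Among genes with the sequence it kept a top share by score, set for each mimic by gene set enrichment analysis. Its methods print the sequence as ACGACGA and also name databases of predicted targets. Its site calls may therefore differ from the search for TGCTGCT made here. For *miR-195*, 4 of the 10 genes scored more than 1.5-fold above the median, beside 18.6% of 13749 genes, and 1 scored lower, beside 16.9%. The 4 were *APOC3*, 11.8-fold above the median (log2 3.57, 2.44 to 4.69), *APOE*, 2.27-fold (1.18, 1.0 to 1.37), *APOA1*, 1.67-fold (0.74, 0.57 to 0.92), and *APOA2*, 1.64-fold (0.71, 0.62 to 0.80). *APOB* scored lower, at -0.59 (-0.60 to -0.57), almost at the limit itself. Of the 544 abundant genes outside the 10, 28.3% scored higher. *APOC1* at 0.54 (0.06 to 1.01) and *APOM* at 0.47 (-0.01 to 0.94) were inside the limit, and *MTTP* at -0.04 (-0.57 to 0.49), *APOH* at -0.17 and *LIPC* at 0.00 (-1.99 to 2.00) lay near the median. Scaled on the abundant genes, 2 of the 10 scored higher and the median of the 10 fell from log2 0.50 to 0.16, and past a limit of 2-fold 2 scored higher and 0 lower. The high score of *APOC3* joins 72 precipitated reads, against 8 in NT, with a total RNA ratio to NT of 0.680.

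For *miR-497*, 1 of the 10 genes scored higher, beside 12.6% of 13430 genes, and 2 scored lower, beside 20.6%. *MTTP* scored 1.54-fold above the median (log2 0.62, 0.12 to 1.12). It was inside the limit, and 0 genes scored higher, without centring, with a pseudocount of 1 RPKM, with a minimum of 1 RPKM, with centring on the genes of at least 1 RPKM in all 6 libraries and at a limit of 2-fold. *APOE* was 2.02-fold lower (-1.02, -1.30 to -0.73) and *APOC3* 1.91-fold lower (-0.93, -2.88 to 1.01), the latter on 3 reads. *APOA1* at -0.52 (-0.76 to -0.28), *APOC1* at -0.49 (-1.15 to 0.16) and *APOA2* at -0.17 lay on the lower side, *APOB* at 0.43, *APOM* at 0.44 and *APOH* at 0.27 on the upper side. *APOA1*, *APOA2* and *APOE* thus scored above the median with *miR-195* but under it with *miR-497*, and *APOB* and *APOH* the other way round, in each case with intervals that did not reach 0. Both scores are divided by the same NT ratio.

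The length of the transcript varied with these measures. Among 5765 genes with at least 10 RPKM in NT total RNA, the Ago2-IP to total RNA ratio in NT was lower in shorter transcripts (Spearman's rho with length 0.60 across genes, which are not independent replicates), and rho was 0.52 over the 10 genes. The Ago2-IP change with *miR-195* ran the other way (rho -0.38 across genes, -0.45 over the 10). It had a median of log2 0.71 in 43 genes under 500 bases, 0.51 in 403 genes of 500 to 999 bases and -0.30 in 404 genes of at least 8000 bases. *APOA2* (474 bases, 0.80), *APOC1* (514 bases, 0.78) and *APOM* (761 bases, 0.64) lay within the interquartile range of the genes of their length, while *APOA1* (899 bases, 0.95) lay above that of the 500 to 999 base genes, 0.14 to 0.83. *APOE* (1166 bases, 1.37) lay above the interquartile range of the 1197 genes of 1000 to 1999 bases, which ran from -0.13 to 0.64, and *APOH* (1174 bases, 0.08), of nearly the same length, lay within it. *APOB* (14121 bases, -0.55) lay within the interquartile range of the genes of at least 8000 bases, -0.58 to -0.04. *APOC3* (535 bases, 3.0) lay far above the range of the 500 to 999 base genes, 0.14 to 0.83. *MTTP* (3920 bases, -0.88) lay under that of the 2000 to 3999 base genes, -0.30 to 0.40. *APOC3* and *MTTP* were themselves under the 10 RPKM in NT total RNA asked of the genes in these ranges. The part of transcript length in these values was not tested.

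**Figure D4:**
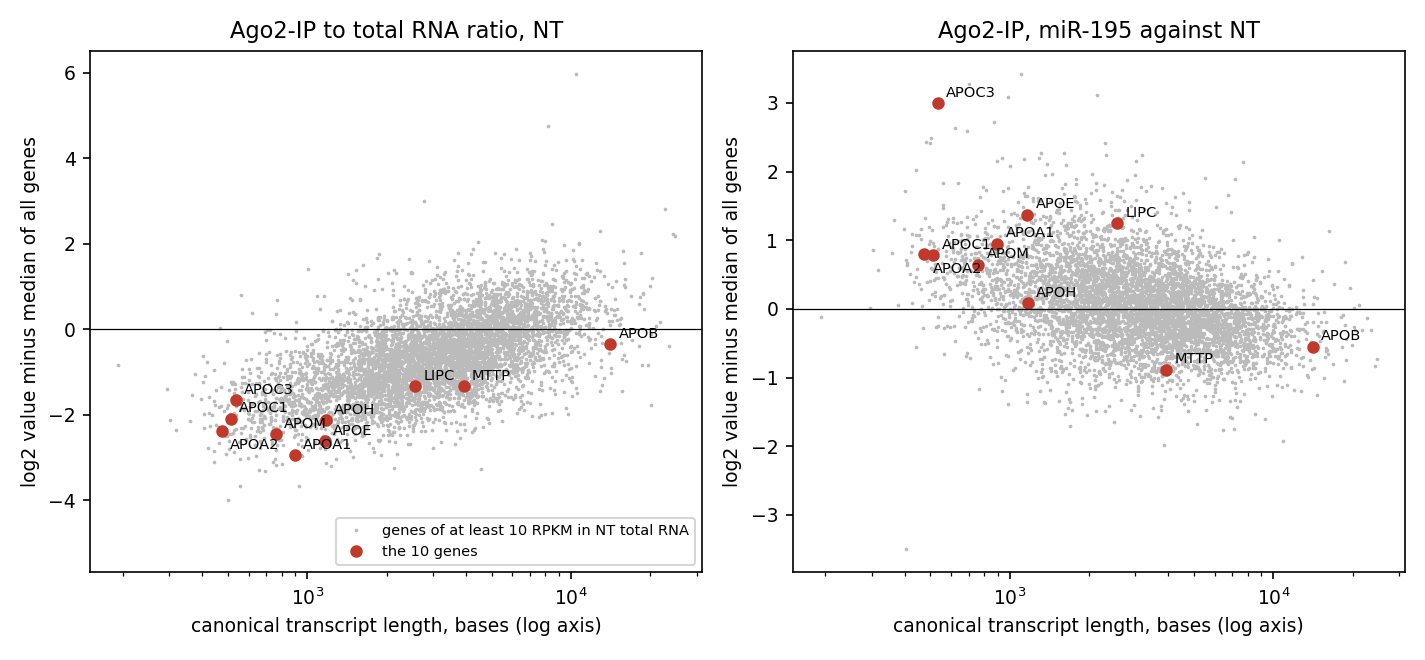
Canonical transcript length (log axis) against the log2 Ago2-IP to total RNA ratio in NT (left) and the log2 Ago2-IP change with *miR-195* (right), both relative to the median of all genes. Grey points are genes of at least 10 RPKM in NT total RNA, red points the 10 genes; short apolipoprotein transcripts sit low on the left and high on the right, and *APOC3* at 3.0 lies above the grey cloud of its length.

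Several of the genes are neighbours in the genome. On chromosome 11 (GRCh37), *APOA5* (chr11:116660083-116663136), *APOA4* (chr11:116691416-116694020), *APOC3* (chr11:116700422-116703788) and *APOA1* (chr11:116706467-116708338) form a cluster, in which *APOC3* is on the plus strand and the others on the minus strand. *APOA4* and *APOA5*, which are not among the 10, were looked up after the *APOC3* values had been seen. In total RNA with *miR-195*, *APOA4* at log2 -0.81 (-1.19 to -0.42) and *APOA5* at -0.45 (-0.80 to -0.09) lay on the same side as *APOC3* at -0.57, while *APOA1* was at 0.20. In total RNA with *miR-497* the 4 lay between 0.26 and 0.50. The Ago2-IP values of *APOA4* (8 reads in NT, 18 with *miR-195*, log2 1.0, -0.20 to 2.20) and *APOA5* (7 reads in each library) were too shallow to place.

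The second cluster, on the plus strand of chromosome 19, runs from *APOE* (chr19:45409048-45412650) and *APOC1* (chr19:45417504-45422606) to *APOC4* and *APOC2* (chr19:45449292-45452822). *APOC2*, the activator of lipoprotein lipase, stood at 149, 183 and 189 RPKM in total RNA and at 15.3, 29.6 and 10.4 RPKM in Ago2-IP. With *miR-195* its total RNA change was log2 0.28 (0.21 to 0.35), and with *miR-497* it was 0.25 (0.18 to 0.32). *APOE* and *APOC1* lay at 0.18 and 0.24 with *miR-195*, and at 0.62 and 0.34 with the other mimic. In Ago2-IP with *miR-195* *APOE* (1.37), *APOC1* (0.78) and *APOC2* (0.48) all lay above the median. With *miR-497* *APOE* (-0.36) lay under it, while the intervals of *APOC1* (-0.11, -0.76 to 0.53) and *APOC2* (-0.33, -0.71 to 0.05) reached it.

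The remaining positions are single genes: *APOB* at chr2:21224301-21266945, *MTTP* at chr4:100485238-100545154, *APOA2* at chr1:161192082-161193421, *APOM* at chr6:31620193-31625987, *APOH* at chr17:64208151-64252643 and *LIPC* at chr15:58702768-58862043.

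Other genes of the pathway were read from lists of further apolipoproteins, of proteins of assembly and secretion, and of receptors, lipases and exchange proteins. Among receptors, lipases and exchange proteins, 10 of 27 genes compared were higher and 0 lower in total RNA with *miR-195*, and 7 were higher and 0 lower with *miR-497*, with list medians of log2 0.39 and 0.43. These counts include genes of low level: 18 of 32 reached 1 RPKM in NT total RNA, and 13 did so in all 6 libraries. The background of this list and of those that follow is the share over all genes, of which 12.9% were higher and 8.93% lower under the *miR-195* mimic. Under the *miR-497* mimic the shares were 14.2% and 7.36%. Of the most abundant of the list, *LIPA*, the lysosomal acid lipase, stood at 75.1, 115 and 94.1 RPKM, *SCARB1*, a receptor of high density lipoprotein, at 59.0, 62.4 and 79.9 RPKM, and *LRPAP1*, a chaperone of lipoprotein receptors, at 35.2, 40.7 and 48.5 RPKM.

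The genes of assembly and secretion, which include the vesicle coat and the lipid-synthesizing acyltransferases, stayed closer to the median. In total RNA 1 of 31 was higher with *miR-195* and 2 with *miR-497*, with none lower, and the list medians were log2 0.04 and -0.11. *SOAT2*, which makes the cholesteryl ester packed into *APOB* particles, stood at 14.9, 24.3 and 27.8 RPKM (0.68 and 0.80) and was the only one past the limit with both mimics. *P4HB*, protein disulfide isomerase, the partner subunit of *MTTP*, stood at 468, 549 and 610 RPKM (0.21 and 0.29) and did not share the low value of *MTTP* with *miR-195*. *SEC23A*, a coat protein of secretory vesicles, stood at 329, 351 and 326 RPKM, and *SURF4*, a cargo receptor for lipoproteins, at 148, 146 and 169 RPKM.

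Of 15 other apolipoprotein genes compared, 5 were higher and 1 lower in total RNA with *miR-195*, and 3 higher and 0 lower with *miR-497*, with medians of log2 0.28 and 0.27. Only 9 of the 19 listed reached 1 RPKM in NT total RNA. After *APOC2* the most abundant were *CLU* at 23.1, 28.6 and 32.3 RPKM and *APOO* at 12.4, 9.96 and 9.67 RPKM. In sterol and fatty acid synthesis 11 of 35 genes were higher and 0 lower with *miR-195*, and 9 higher and 0 lower with *miR-497* (medians 0.43 and 0.37), and *SCD* and *FDFT1*, among its most abundant, each stood lowest in NT, at 368 and 158 RPKM. Among 31 plasma protein genes 6 were higher and 1 lower with *miR-195*, and 7 higher and 2 lower with *miR-497* (medians 0.23 and 0.12), led in level by *AFP*, *AHSG* and *SERPINA1*. These plasma protein counts, and those of the other apolipoproteins with *miR-497*, are not far from the shares over all genes. Among 34 hepatocyte transcription factor genes, 1 was higher and 1 lower with *miR-195* and 1 higher with *miR-497*, and *HNF4A*, *CEBPA* and *FOXA1*, its most abundant, stayed within log2 -0.18 to 0.22.

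**Figure D5:**
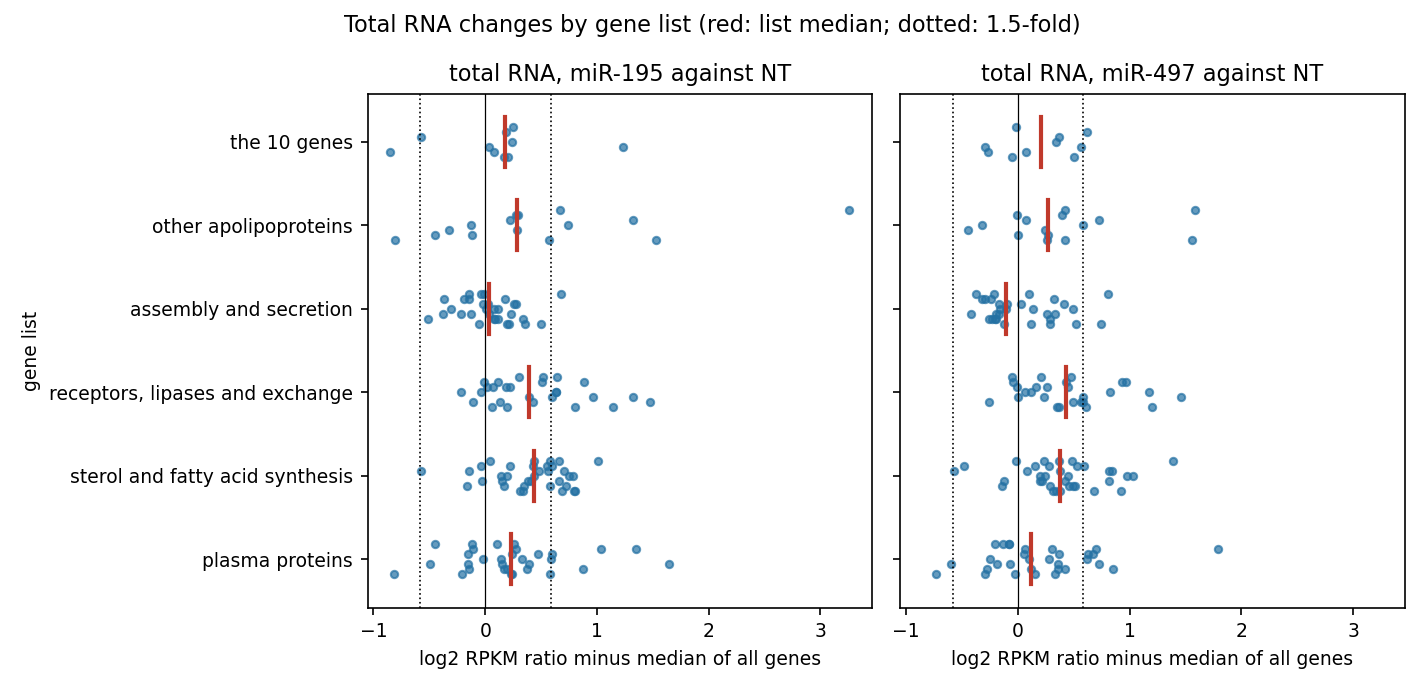
Log2 total RNA change relative to the median of all genes for each gene of 6 lists (points) with the list median (red bar), with *miR-195* on the left and *miR-497* on the right and dotted lines at 1.5-fold. The receptor and the sterol lists have medians between 0.37 and 0.43 with both mimics, the 10 genes 0.18 and 0.21, and the assembly list 0.04 and -0.11.

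The genes whose profile over the 6 libraries lay nearest to the mean profile of the 10 were sought among 1037 other genes with at least 10 RPKM in every library, by the Euclidean distance of log2 RPKM centred on each gene's own mean. The nearest included *KDELR1* (distance 0.112), *P4HB* (0.171), *SSR2* (0.172) and *PKM2* (0.210). *KDELR1*, a receptor that retrieves proteins to the endoplasmic reticulum, stood at 138, 154 and 175 RPKM in total RNA and at 12.6, 30.5 and 11.1 RPKM in Ago2-IP. The gene was chosen for this profile, and the distance was taken on RPKM as deposited, so its values are a description.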

How the data were processed

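Single short reads of 3 Ago2-IP libraries and 3 total RNA libraries were mapped by the authors to hg19 with ELANDv2 and converted with CASAVA 1.7, and the deposited values are RPKM per gene, used here without further normalization. The gene annotation, counting by strand and the libraries with poly-A selection are not given in the sources used here. The table has 21891 lines for 21863 symbols, and repeated lines (28 symbols) were averaged.

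Genes above 0 RPKM in every library of a comparison were compared as log2 ratios without a pseudocount, minus the median of all genes compared. Counted genes were past 1.5-fold. With 1 library per group no test was run. Whole reads were inferred as the smallest whole numbers in the ratio of a gene's RPKM over the 6 libraries, each divided by the worth of 1 read in it (tolerance 0.0005 plus 0.0001 of the number, at most 0.05). They were found for 14399 of 15487 genes (93.0%) and 9 of the 10; for *APOB* reads were estimated from the annotated length. Intervals of 95% cover counting error only. The procedure was tested on simulated data.

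The 10 genes, the gene lists and the alternatives were chosen with earlier results of these data known. Named beside the 10 were genes of 3 pathway lists with at least 1 RPKM in all 6 libraries that lay past 1.5-fold in total RNA with both mimics in 1 direction, the 3 most abundant of each list, and the 5 genes of nearest profile. Some genes that this rule names are not reported here. Of the listed symbols, APOBR was matched through its older name, and 1 of the receptor list was not matched. Alternatives were no centring, pseudocounts of 0.1 and 1, a minimum of 1 RPKM, scaling on abundant or on expressed genes, a limit of 2-fold, unaveraged lines and sites of 6 and 8 bases. A minimum of 10 reads was chosen after seeing the data. Annotation was GENCODE release 44 on GRCh37. Software was samtools 1.23.1, matplotlib 3.10.9, pysam 0.24.0, pandas 2.3.3, scipy 1.17.1, numpy 2.4.6 and Python 3.11.15.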

Additional observations from a re-analysis of the deposited data

Results flagged for a closer look

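In 4 cases a gene's change lay on opposite sides of the median of all genes in the 2 fractions of one mimic, with counting intervals that did not reach 0 in either fraction; the difference between fractions was not tested, since each fraction has 1 library per condition. With *miR-195*, *APOC3* was at log2 -0.57 in total RNA and 3.0 in Ago2-IP, a difference of 3.57, and *APOB* was at 0.03 and -0.55, a difference of -0.58. With *miR-497*, *APOE* was at 0.62 in total RNA and -0.36 in Ago2-IP, a difference of -0.98, and *APOB* was at -0.29 and 0.18, a difference of 0.47. Without centring, *APOB* with *miR-497* was under NT in both fractions, at log2 -0.20 in total RNA and -0.05 in Ago2-IP. The total RNA change of *APOB* with *miR-195* was only 1.02-fold. Its interval (0.028 to 0.040) missed 0 because the estimated read number is very large. *APOB* has the longest transcript of the 10, 14121 bases, and *APOC3* one of the shortest, 535 bases. The part of transcript length in these differences was not tested.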

How the results depend on the processing

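Without centring, 3 of the 10 genes were past the limit in total RNA with *miR-497* (1 with centring) and 2 in Ago2-IP with *miR-497* (0 with centring). The medians of the 10 were then 0.30 in total RNA with *miR-497*, 1.26 in Ago2-IP with *miR-195* and 0.97 in the *miR-195* score, and the medians of the Ago2-IP to total RNA ratio were -3.73, -2.65 and -4.17 for NT, *miR-195* and *miR-497*. Scaling on genes of at least 100 RPKM gave medians of 0.26 in total RNA with *miR-195*, 0.31 with *miR-497* (3 genes past the limit), 0.16 in the *miR-195* score (3 past the limit), and -0.49, -0.23 and -0.68 in the ratio of the 3 conditions. Centring on genes of at least 1 RPKM in all libraries gave 0.32 and 3 genes in total RNA with *miR-497*. A minimum of 1 RPKM left 5 genes past the limit in the Ago2-IP and 1 in the total RNA comparison of *miR-195*, and a median of 0.12 in total RNA with *miR-497*. A limit of 2-fold left 3 genes in the Ago2-IP and 1 in the total RNA comparison of *miR-195*, 0 in total RNA with *miR-497*, 2 in the *miR-195* score and 1 in the *miR-497* score. With the genes of at least 10 reads in every library, chosen after seeing the data and leaving out *APOC3* and *LIPC*, 1 gene was past the limit in total RNA with *miR-195* and the median in total RNA with *miR-497* was 0.031. The core of 6 bases was in a 3′UTR of 2 genes. These counts take higher and lower genes together. The shares over all genes were not counted under any of the alternatives, so the counts have no background beside them. The remaining values, 41 such counts, 39 medians of changes, 3 medians of the ratio and 1 site count, stayed within 1.5-fold of the count or within the counting interval, but some of them shifted between directions. Scaling on genes of at least 100 RPKM gave 4 higher and 2 lower in Ago2-IP with *miR-195* (7 and 1 as reported). In the *miR-497* score (1 higher and 2 lower as reported), there were 0 and 4 without centring, 0 and 3 with centring on genes of at least 1 RPKM, and 0 and 2 with a pseudocount of 1 or a minimum of 1 RPKM. The median of the 10 turned direction, within the counting interval, in Ago2-IP with *miR-497*, from 0.098 to -0.129 without centring and -0.002 with a pseudocount of 1, and in the *miR-497* score, from -0.235 to 0.049 with the genes of at least 10 reads. *APOC3* with 3 to 72 reads and *LIPC* with 2 to 8 reads in Ago2-IP limit what can be said of them, and no value has a replicate. No paired analysis was possible because each group has 1 library and no test was run.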
